A study of Mus musculus with 18 samples.

Results

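The proteasome genes of mouse liver and liver tumours were taken as all genes whose array symbol begins with Psma, Psmb, Psmc, Psmd, Psme, Psmf or Psmg. The array carried 49 such genes on 103 probe sets, out of 18194 genes with a single symbol. A probe set was kept where its log2 signal exceeded 4 on at least 3 arrays, and of several such probe sets for a gene the one with the highest mean was used, which left 47 of the 49 genes among 9053 tested. Of these 47, 45 exceeded log2 4 on all 18 arrays. Psmg4 did so on 9 arrays and Psma8 on 3, which placed these 2 just inside the filter. All of those arrays were tumours. Psmb11, a thymus subunit, with log2 signals of 2.16 to 2.72, and Psmc3ip, with 2.46 to 3.19, fell outside it and were not tested. Psmc3ip, a meiotic recombination factor, and Psme3ip1, a partner of the activator Psme3, share only the prefix and are no subunits of the complex. Psme2 had only a probe set that lists a second gene, so it was not analysed here.

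The proteasome is the cell's main machine for breaking down proteins marked with ubiquitin. Its core particle is a barrel of stacked alpha and beta rings, in which the beta subunits Psmb5, Psmb6 and Psmb7 cut the protein chain. A regulatory particle of ATPases (the Psmc genes) and non-ATPase subunits (the Psmd genes) binds, unfolds and feeds in substrates, while the Psmg genes and some Psmd genes encode assembly chaperones. Interferon gamma induces 3 alternative catalytic subunits, Psmb8, Psmb9 and Psmb10, that take the places of Psmb5, Psmb6 and Psmb7 and form the immunoproteasome, which yields many of the peptides shown on MHC class I. Immune cells carry immunoproteasomes constitutively, whereas hepatocytes mainly carry the constitutive form.

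The study compared hepatocellular carcinoma (HCC) that arose with or without working Tlr4, the lipopolysaccharide receptor, or with the gut microbiota depleted. Of the 18 samples, all from male mice, 5 were tumours of C3H/HeJ mice with the Tlr4P712H allele, 3 were tumours of C3H/HeOuJ mice (wild type, WT) given antibiotics, 7 were tumours of WT C3H/HeOuJ mice without antibiotics and 3 were normal livers of WT C3H/HeOuJ mice. Every tumour was dissected at 54 weeks of age, after the carcinogen DEN (100 mg/kg, week 12) and 6 doses of the liver toxin CCl4 (0.5 ml/kg) in weeks 13 to 23; normal livers came at 15 weeks of age from mice for which no such treatment is labelled. The antibiotic mice drank ampicillin, neomycin and metronidazole at 1 g/l each and vancomycin at 500 mg/l from week 10. Age, carcinogen exposure and tumour therefore cannot be told apart in any comparison with normal liver, and the C3H/HeJ mice differ from the WT mice in substrain as well as in Tlr4. Whether the samples within a group are separate animals is not stated, so p-values reflect nothing beyond sample-to-sample spread, which could be technical. In dissected tissue, a change in the share of a cell type cannot be told apart from a change in RNA per cell.

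Precision is limited by the small groups, the smallest of 3 arrays. Array medians lay between log2 6.69 and 6.85. All 4 Tlr4 probe sets stayed below log2 4 on all 18 arrays, and the mutant allele is a point change, so Tlr4 signal gives no check of the labels. For the Gapdh control, whose 3' signal over its 5' signal tracks RNA quality, the log2 difference averaged 0.66 ± 0.24 in mutant tumours (SD, n = 5), 0.40 ± 0.13 in antibiotic tumours (SD, n = 3) and 0.42 ± 0.15 in WT tumours (SD, n = 7), against 1.52 ± 0.13 in normal liver (SD, n = 3). A spiked-in dap control was bright on the 3 normal arrays alone, at a mean of 10.30 there and 1.98, 1.90 and 1.91 in mutant, antibiotic and WT tumours. Preparation of the RNA and tissue cannot be told apart in comparisons with normal liver. WT tumours 17 and 19 stood apart on the second principal component. Results that rest on them are given with and without them, except the relations with leukocyte markers. Of the hepatocyte markers, Alb, Apoa1 and Ttr were bright on all 18 arrays, and the median summed signal was 127224 linear units over 8 genes in mutant tumours, 120993 in antibiotic tumours, 116758 in WT tumours and 124078 in normal liver, and with all arrays 0 of the 8 passed the test in any comparison. The sum rests on the brightest genes: in WT tumour 19 Tat read 6.15 and Cps1 9.35, against 11.27 to 11.72 and 13.39 to 13.41 in normal liver, and in WT tumour 20 Tat read 7.82. The lowest mean log2 signal over the 8 markers was 12.18 in WT tumours, against 13.45 in normal liver, and the part of these markers in the values of WT tumour 19 was not tested.

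The catalytic subunits are the genes on which the results turn, and the sequence just before 4 of them is shown because their control is known to differ. RefSeq promoter windows (mouse build GRCm38.p6, 250 bases before to 50 after the start of the gene) matched 39 of the 47 tested genes. Both strands were searched for the gamma-activated site TTCNNNGAA, bound by interferon gamma signalling, the interferon-stimulated response element GAAANNGAAA, and the antioxidant response element core TGACNNNGC, bound by the Nfe2l1 and Nfe2l2 proteins that drive constitutive subunits. Capitals mark the gamma-activated site in Psmb8 (chr17:34197945-34198244, plus strand), the antioxidant core in Psmb5 (chr14:54617946-54618245, minus strand) and Psmb6 (chr11:70525107-70525406, plus strand), and in Psmb9 (chr17:34187281-34187580, minus strand) the 275 bases that also lie, on the opposite strand, in the window of its neighbour Tap1, the peptide transporter.
Psmb8: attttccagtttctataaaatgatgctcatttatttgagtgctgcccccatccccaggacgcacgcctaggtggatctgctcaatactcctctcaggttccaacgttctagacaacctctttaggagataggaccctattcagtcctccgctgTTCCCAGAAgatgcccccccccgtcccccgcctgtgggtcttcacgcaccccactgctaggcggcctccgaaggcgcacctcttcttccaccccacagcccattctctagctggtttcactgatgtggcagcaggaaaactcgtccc
Psmb9: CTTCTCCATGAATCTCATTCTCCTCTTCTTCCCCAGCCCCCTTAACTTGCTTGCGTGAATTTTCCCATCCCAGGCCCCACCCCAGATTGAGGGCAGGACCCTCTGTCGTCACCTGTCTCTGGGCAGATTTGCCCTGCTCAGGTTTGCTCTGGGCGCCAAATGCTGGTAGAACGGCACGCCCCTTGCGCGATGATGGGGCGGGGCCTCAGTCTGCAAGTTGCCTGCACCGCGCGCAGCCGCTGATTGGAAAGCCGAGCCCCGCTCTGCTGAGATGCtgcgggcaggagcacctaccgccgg
Psmb5: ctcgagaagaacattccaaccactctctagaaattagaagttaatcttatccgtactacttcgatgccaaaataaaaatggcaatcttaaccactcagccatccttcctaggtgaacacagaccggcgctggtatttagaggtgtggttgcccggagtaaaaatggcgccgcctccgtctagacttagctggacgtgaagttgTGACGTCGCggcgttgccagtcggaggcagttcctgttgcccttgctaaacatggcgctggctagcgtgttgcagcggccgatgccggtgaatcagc
Psmb6: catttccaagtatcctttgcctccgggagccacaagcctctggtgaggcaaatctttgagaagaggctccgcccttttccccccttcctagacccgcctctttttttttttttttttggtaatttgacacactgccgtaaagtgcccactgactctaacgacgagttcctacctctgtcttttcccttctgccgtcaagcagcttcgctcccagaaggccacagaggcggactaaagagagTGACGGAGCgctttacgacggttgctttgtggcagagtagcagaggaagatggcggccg
The gamma-activated letters in Psmb8 begin 97 bases before the start, and the antioxidant letters begin 47 bases before it in Psmb5 and 9 bases before it in Psmb6. The gene order on chromosome 17 is Psmb9, Tap1, Psmb8, Tap2, so both subunits lie among transporter genes of the MHC. The antioxidant core was in the windows of 6 of the 39 genes (15.4%, against 17.3% of the 7410 tested genes with a window and 12.4% of all 32851 windows), namely Psmb5, Psmb6, Psmc6, Psmd9, Psmd12 and Psme4. The gamma-activated site was in 3 (7.69%, against 7.92% and 8.30%), namely Psmb8, Psmd2 and Psmg1. The interferon-stimulated element was in 5 (12.8%, against 3.66% and 3.44%), namely Psmb3, Psmd4, Psmd9, Psme1 and Psmg4. The windows of Psmb9 and Psmb10 held 0 matches to any of the 3 motifs. Such matches are of letters and not shown sites.

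WT tumours were set against normal liver to ask which proteasome genes separate tumour from liver of the same strain. The large majority of the complex did not pass the test, while Psmb8, Psmd7, Psmd8 and Psmd10 rose by about 2-fold or more. With limma fitted to all 18 arrays and Benjamini-Hochberg adjustment over the 9053 genes, 6 of the 47 genes were higher and 5 lower in WT tumours at an adjusted p under 0.05. That is 23.4% of them, against 39.0% of all genes tested (18.8% higher and 20.2% lower). The groups did not overlap for 12 of the 47 (25.5%, against 38.4% of all genes). Their median log2 change was 0.01, against -0.01 over all genes, and 40 of the 47 changes were under 0.5 log2 in size. Of the 32 constitutive subunits of the core and regulatory particles, 3 were higher and 3 lower, and the 95% interval of the change lay within 1 log2 of 0 for 29 of them. By role, 1 of 8 alpha subunits, 1 of 3 immunoproteasome subunits, 2 of 11 non-ATPases, 1 of 3 regulatory and 1 of 4 core chaperones were higher; 1 of 7 constitutive beta subunits, 2 of 11 non-ATPases, 1 of 4 core chaperones and 1 of 4 activators and inhibitors were lower, and 0 of 6 ATPases passed.

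**Figure D1:**
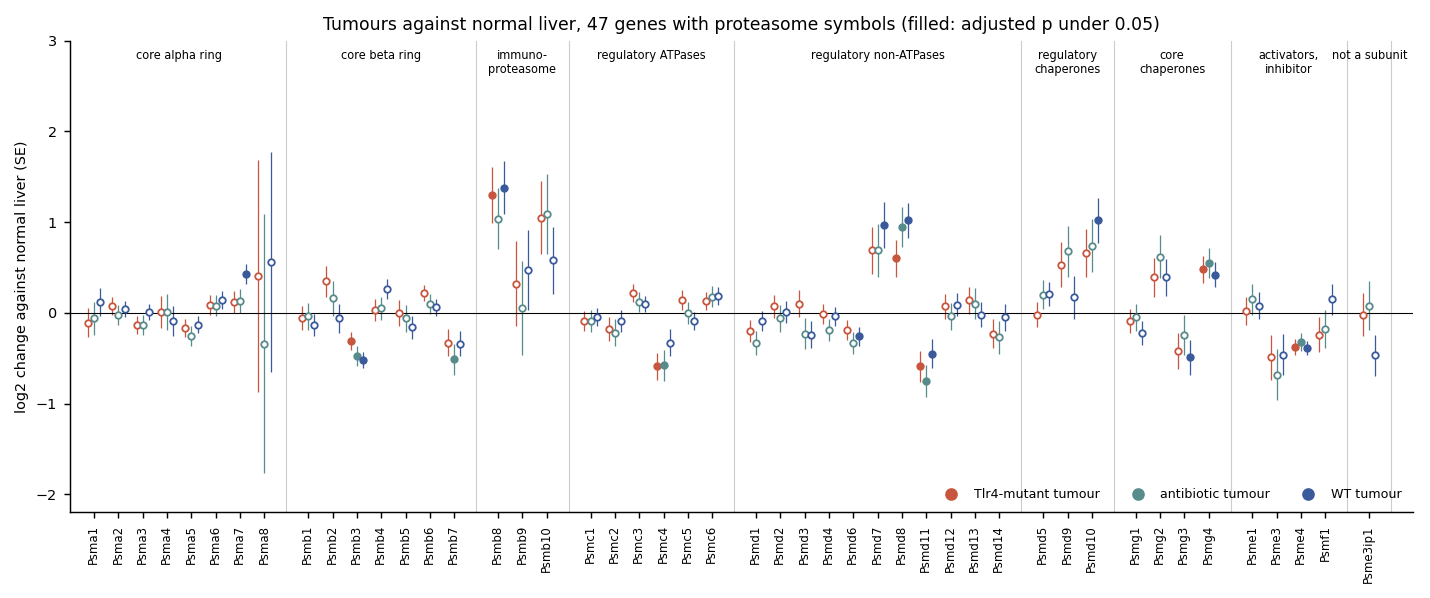
Log2 change against normal liver (vertical axis, with SE) of the 47 genes, grouped by role, in Tlr4-mutant, antibiotic and WT tumours; filled points passed an adjusted p of 0.05. Most points sit close to 0, whereas Psmb8, Psmd8, Psmd7 and Psmd10 sit well above it in all 3 tumour groups and Psmd11 and Psmb3 sit below it. Each gene is shown by 1 probe set, and the kept Psmb3 probe sets differed in sign.

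Among the immunoproteasome subunits, Psmb8, the interferon-inducible substitute for Psmb5, had log2 signals of 9.48, 9.83, 9.16, 9.81 and 9.68 in mutant tumours. The antibiotic tumours read 8.92, 10.29 and 8.81, and the WT tumours 9.12 at the lowest, 9.77 at the median and 10.23 at the highest, against 8.25, 8.08 and 8.55 in normal liver. Every one of the 15 tumours lay above every normal liver. The log2 change was 1.38 ± 0.29 (SE) in WT tumours (2.59-fold, adjusted p = 0.00199) and 1.30 ± 0.31 in mutant tumours (2.46-fold, adjusted p = 0.00758). In antibiotic tumours it was 1.04 ± 0.34 (2.06-fold, adjusted p = 0.0503), just short of the threshold. The antibiotic value leaned on tumour 29: without tumour 28 or tumour 30 it was 1.25 or 1.30 and passed (adjusted p = 0.0343 and 0.0288), and without tumour 29 it was 0.56 (adjusted p = 0.237). It also passed when WT tumour 17, 19 or 20 was left out of the shared estimate of spread (adjusted p = 0.0492, 0.0442 and 0.0467).

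Psmb10, the substitute for Psmb7, had log2 signals of 8.85, 8.99, 8.54, 8.66 and 9.01 in mutant tumours. It read 8.40, 9.31 and 8.85 in antibiotic tumours and 6.76, 8.72 and 9.10 (lowest, median, highest) in WT tumours, against 7.82, 7.79 and 7.68 in normal liver. All mutant and antibiotic tumours lay above all normal livers, and 6 of the 7 WT tumours did; WT tumour 19 lay below them. The change did not pass in mutant tumours (1.05 ± 0.40, adjusted p = 0.0673), antibiotic tumours (1.09 ± 0.44, adjusted p = 0.103) or WT tumours (0.58 ± 0.37, adjusted p = 0.227). Without WT tumour 19 alone, it passed in each group, at 1.05 (adjusted p = 0.00947), 1.09 (adjusted p = 0.0191) and 0.85 (adjusted p = 0.0148). That tumour enters the mutant and antibiotic comparisons only through the shared estimate of spread, so their changes stayed the same. Without both WT tumours 17 and 19 the WT change was 0.98 (adjusted p = 0.00462).

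Psmb9, the substitute for Psmb6, did not pass in any tumour group. Its log2 signals were 8.56, 8.97, 8.17, 8.41 and 8.87 in mutant tumours, 7.86, 9.57 and 7.55 in antibiotic tumours and 7.19, 8.73 and 9.55 (lowest, median, highest) in WT tumours, against 8.37, 8.17 and 8.30 in normal liver. The antibiotic values lay on both sides of the narrow range of normal liver. WT tumour 19 (7.19) lay below that range, and every other WT tumour lay above it. The mutant values lay at its lower edge or above. The change was 0.32 ± 0.47 in mutant tumours (adjusted p = 0.654), 0.05 ± 0.52 in antibiotic tumours (adjusted p = 0.960) and 0.47 ± 0.44 in WT tumours (adjusted p = 0.417). Without antibiotic tumour 29 the antibiotic value turned to -0.57 (adjusted p = 0.505). Without WT tumours 17 and 19 the WT value was 0.83 (adjusted p = 0.0854). Its intervals of -0.67 to 1.31, -1.06 to 1.16 and -0.47 to 1.40 log2 leave room for changes of the size seen in Psmb8.

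Of the constitutive counterparts, Psmb7 alone passed, in antibiotic tumours. Psmb5, the chymotrypsin-like subunit, averaged 10.50 ± 0.11 in mutant tumours, 10.44 ± 0.16 in antibiotic tumours and 10.34 ± 0.22 in WT tumours, against 10.50 ± 0.05 in normal liver (log2, SD, n = 5, 3, 7 and 3), and its groups overlapped. Psmb6, the caspase-like subunit, averaged 10.96 ± 0.12, 10.84 ± 0.09 and 10.80 ± 0.07, against 10.74 ± 0.02, in the same order of groups; its mutant and antibiotic tumours lay just above normal liver (adjusted p = 0.103 and 0.523). Psmb7, the trypsin-like subunit, read 9.04, 8.68 and 8.45 in antibiotic tumours, against 9.12, 9.20 and 9.39 in normal liver, so the groups were apart but close. Its fall there was -0.51 ± 0.17 (adjusted p = 0.0498); leaving out any of 14 arrays (normal livers 1, 2 and 3, WT tumours 16, 18, 19, 20, 21 and 22, mutant tumours 24, 25 and 26, antibiotic tumours 29 and 30) ended the call, with adjusted p up to 0.158. In mutant and WT tumours Psmb7 changed by -0.33 ± 0.15 (adjusted p = 0.127) and -0.34 ± 0.14 (adjusted p = 0.0662).

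The log2 ratio of each inducible subunit to its counterpart, set to 0 at the mean of normal liver, describes the balance within an array. For Psmb8 over Psmb5 it ran from 0.86 to 1.69 in mutant tumours, 0.59 to 1.96 in antibiotic tumours and 0.74 to 2.21 in WT tumours, against -0.26 to 0.25 in normal liver. All 15 tumours exceeded all normal livers. For Psmb10 over Psmb7 it ran from 1.12 to 1.86, from 0.84 to 2.10 and from -0.55 to 1.59, against -0.23 to 0.17; WT tumour 19 (-0.55) was the exception to the same order, and WT tumour 17 (0.31) was close to normal liver. For Psmb9 over Psmb6 it ran from -0.28 to 0.58, from -0.79 to 1.09 and from -1.03 to 1.31, against -0.12 to 0.07, with overlap in each group. In WT tumours this overlap came from WT tumour 19 (-1.03) alone.

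**Figure D2:**
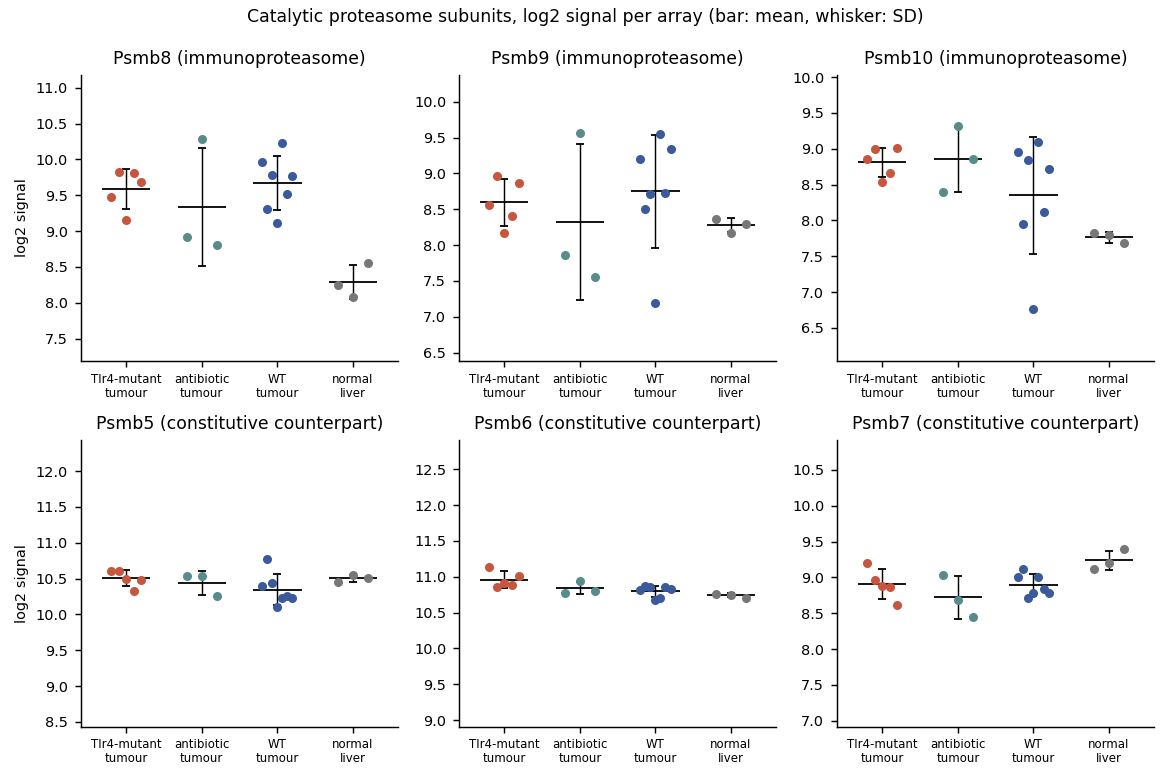
Log2 signal per array (points) with mean and SD for the 3 immunoproteasome subunits (top) and their constitutive counterparts (bottom) in Tlr4-mutant, antibiotic and WT tumours and normal liver; each panel spans 4 log2 units. Psmb8 in all tumours lies above all normal livers, Psmb9 does not, and the counterparts stay within a narrow band.

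Leukocyte markers also differed between the tumours and normal liver. Of 17 such markers on the array 10 passed the filter, and 4, 3 and 7 of the 10 were higher in mutant, antibiotic and WT tumours than in normal liver, with 0 lower, against 11.7%, 8.11% and 18.8% of all genes higher. Among them in WT tumours were Lyz2 of myeloid cells, which rose by 2.99 log2 (adjusted p = 0.00535), and Cd68 of macrophages, which was at least 1.3-fold higher because normal liver lay below log2 4 (adjusted p = 0.00588). The summed linear signal of the 17 ran from 782 to 3041 in mutant tumours, 479 to 4698 in antibiotic tumours and 975 to 3351 in WT tumours, against 452 to 871 in normal liver. The T, B and natural killer cell markers Cd3e, Cd3g, Cd8a, Cd79a, Cd79b and Nkg7, and the dendritic marker Itgax, did not pass the filter. Cd52, Cd68, Coro1a and S100a8 lay below log2 4 in every normal liver and passed it through tumours alone. A fall could hardly be called for them, so the counts of higher and lower markers were partly set by the filter. The part of leukocytes in the immunoproteasome values was not tested.

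Among the 3 activators and the inhibitor, 0 rose and 1 fell in each tumour group. Of all genes, 11.7%, 8.11% and 18.8% rose and 10.5%, 6.91% and 20.2% fell in mutant, antibiotic and WT tumours. Psme1, the interferon-inducible activator that caps immunoproteasomes, averaged 10.12 ± 0.14 in mutant tumours, 10.26 ± 0.16 in antibiotic tumours and 10.18 ± 0.26 in WT tumours, against 10.10 ± 0.10 in normal liver (log2, SD). The intervals of its change were -0.30 to 0.35, -0.21 to 0.52 and -0.23 to 0.39 log2. Psme3, the nuclear activator, read 6.36, 6.01, 6.43, 6.38 and 6.42 in mutant tumours, against 6.74, 6.95 and 6.74 in normal liver; the groups were apart, but -0.49 ± 0.25 did not pass (adjusted p = 0.164). Nor did -0.68 ± 0.28 in antibiotic tumours (adjusted p = 0.104) or -0.46 ± 0.23 in WT tumours (adjusted p = 0.129). Psmf1, which inhibits the core particle in vitro, changed by -0.24 ± 0.19, -0.18 ± 0.21 and 0.15 ± 0.17 (adjusted p = 0.362, 0.568 and 0.522).

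Psme4, an activator active in chromatin and sperm development, fell. Its log2 signals were 10.71, 10.63, 10.57, 10.55 and 10.58 in mutant tumours, 10.62, 10.65 and 10.74 in antibiotic tumours and 10.55 to 10.76 in WT tumours, against 10.89, 11.06 and 11.02 in normal liver. No tumour reached the normal range. The changes were -0.38 ± 0.09 (adjusted p = 0.00703), -0.32 ± 0.10 (adjusted p = 0.0400) and -0.39 ± 0.08 (adjusted p = 0.00228). In antibiotic tumours the call ended when normal liver 1, 2 or 3, WT tumour 21, mutant tumour 25 or antibiotic tumour 28 or 29 was left out (adjusted p = 0.0504 to 0.133). The 5 Psme4 probe sets did not move together, as given below.

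In the regulatory particle, 1 of the 6 ATPases, Psmc4, fell in mutant and antibiotic tumours and 0 rose, while the non-ATPase lid held genes that rose and genes that fell. Of all genes, 10.5% and 6.91% fell in mutant and antibiotic tumours. Psmd8, a lid subunit, read 10.42, 10.72, 10.61, 10.40 and 10.32 in mutant tumours and 10.55, 11.24 and 10.74 in antibiotic tumours, and 10.52, 10.92 and 11.35 (lowest, median, highest) in WT tumours, against 9.77, 9.96 and 9.94 in normal liver. Every tumour lay above every normal liver. It rose in all 3 groups, by 0.60 ± 0.20 (1.52-fold, adjusted p = 0.0388), 0.95 ± 0.22 (1.94-fold, adjusted p = 0.0104) and 1.02 ± 0.19 (2.03-fold, adjusted p = 0.000827). The mutant call ended without normal liver 1, 2 or 3 or mutant tumour 24, 25 or 26 (adjusted p = 0.0567 to 0.134), and the antibiotic call ended without tumour 29 (0.75, adjusted p = 0.0609).

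Psmd7, the lid partner of the deubiquitinase Psmd14, read 8.35, 8.74 and 9.15 (lowest, median, highest) in WT tumours, against 7.48, 7.68 and 8.14 in normal liver, with no overlap. It rose there by 0.97 ± 0.25 (1.96-fold, adjusted p = 0.00656). In mutant and antibiotic tumours it changed by 0.69 ± 0.26 (adjusted p = 0.0675) and 0.69 ± 0.29 (adjusted p = 0.116), and those groups overlapped with normal liver. Psmd10, an assembly chaperone of the regulatory particle also known as the liver oncoprotein gankyrin, read 7.91, 8.09 and 8.98 (lowest, median, highest) in WT tumours, against 7.25, 7.55 and 7.12 in normal liver. It lay above normal liver in each WT tumour and rose by 1.02 ± 0.25 (2.03-fold, adjusted p = 0.00478). In mutant and antibiotic tumours the change was 0.66 ± 0.26 (adjusted p = 0.0798) and 0.74 ± 0.29 (adjusted p = 0.0949).

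Other subunits of the lid fell. Psmd11, a lid scaffold, read 11.36, 11.10, 10.79, 10.52 and 10.88 in mutant tumours, 10.67, 10.95 and 10.68 in antibiotic tumours and 10.86, 10.98 and 11.32 (lowest, median, highest) in WT tumours, against 11.38, 11.61 and 11.57 in normal liver. All tumours lay below normal liver, mutant tumour 23 only just. The changes were -0.59 ± 0.17 (adjusted p = 0.0183), -0.75 ± 0.18 (adjusted p = 0.0135) and -0.45 ± 0.16 (adjusted p = 0.0301). Without normal liver 2 the adjusted p was 0.0783, 0.0549 and 0.113, and without normal liver 3 it was 0.0677 in mutant and 0.0971 in WT tumours. Psmd6 fell in WT tumours by 0.26 ± 0.10 on the log2 scale (adjusted p = 0.0499), and this call ended when any of 14 arrays was left out (normal livers 1, 2 and 3, WT tumours 17 to 22, mutant tumours 23 to 26 and antibiotic tumour 29), with adjusted p up to 0.153.

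Among the ATPases, Psmc4 read 11.02, 11.20, 10.77, 11.01 and 10.86 in mutant tumours and 11.22, 10.89 and 10.82 in antibiotic tumours, against 11.96, 11.32 and 11.41 in normal liver. The groups were apart, and normal liver 1 was the high value. The changes were -0.59 ± 0.15 (adjusted p = 0.0130) and -0.58 ± 0.17 (adjusted p = 0.0326), with -0.33 ± 0.15 in WT tumours (adjusted p = 0.0777). Without normal liver 1 both called values were -0.39 (adjusted p = 0.0991 and 0.155), and the antibiotic call also ended without antibiotic tumour 29 or 30 (adjusted p = 0.108 and 0.0900). The other 5 ATPases did not pass in any of the 3 groups.

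In the core particle, Psma7 of the alpha ring rose in WT tumours. The probe set used for Psmb3, a non-catalytic beta subunit, fell in all 3 groups. The other Psmb3 probe set changed in the opposite direction, as given below. Psma7 read 10.60, 10.81 and 10.99 (lowest, median, highest) in WT tumours, against 10.29, 10.44 and 10.43 in normal liver, and rose by 0.43 ± 0.11 (1.34-fold, adjusted p = 0.00771). In mutant and antibiotic tumours the change was 0.12 ± 0.12 (adjusted p = 0.482) and 0.13 ± 0.13 (adjusted p = 0.516). Psmb3 read 11.41, 11.34, 11.27, 11.35 and 11.44 in mutant tumours, 11.32, 11.09 and 11.19 in antibiotic tumours and 10.99, 11.17 and 11.25 (lowest, median, highest) in WT tumours, against 11.75, 11.64 and 11.63 in normal liver. No tumour reached normal liver. Its changes were -0.31 ± 0.10 (adjusted p = 0.0276), -0.48 ± 0.11 (adjusted p = 0.00844) and -0.52 ± 0.09 (adjusted p = 0.000534). The mutant call ended without normal liver 1, 2 or 3 or mutant tumour 24, 25 or 26 (adjusted p = 0.0516 to 0.116).

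Of the core assembly chaperones, Psmg4 read 3.80, 4.27, 4.21, 3.95 and 4.11 in mutant tumours, 3.71, 4.50 and 4.19 in antibiotic tumours and 3.83, 4.04 and 4.11 (lowest, median, highest) in WT tumours, against 3.54, 3.66 and 3.56 in normal liver. The tumours lay above normal liver but at the edge of detection, and normal liver lay wholly below log2 4, where the array gives only a bound. Measured against log2 4, Psmg4 was at least 1.05-fold, 1.10-fold and 1.01-fold higher (adjusted p = 0.0323, 0.0410 and 0.0281). It passed the filter through tumours alone (4 WT, 3 mutant and 2 antibiotic arrays, with 0 normal livers). These calls were therefore partly set by the filter and give no support. Each of these calls ended when any normal liver was left out, with adjusted p of 0.0602 to 0.0917 in WT tumours, 0.0711 to 0.105 in mutant tumours and 0.0814 to 0.114 in antibiotic tumours. The mutant call also ended without mutant tumour 24 or 25 (adjusted p = 0.0724 and 0.0701), and the antibiotic call without antibiotic tumour 29 or 30 (adjusted p = 0.191 and 0.0866). Psmg3 fell by 0.49 ± 0.19 on the log2 scale in WT tumours (adjusted p = 0.0488) with overlapping groups, and the call ended when any of 15 arrays was left out, all but WT tumours 16, 21 and 22 (adjusted p up to 0.169).

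Counted over the whole complex, mutant tumours differed from normal liver in 3 higher genes (Psmb8, Psmd8 and Psmg4) and 4 lower genes (Psmb3, Psmc4, Psmd11 and Psme4), which is 14.9% of the 47, against 22.3% of all genes (11.7% higher and 10.5% lower). The groups did not overlap for 16 of the 47 (34.0%, against 39.0%), and the median change was 0.02 log2, as over all genes. Antibiotic tumours differed in 2 higher genes (Psmd8 and Psmg4) and 5 lower genes (Psmb3, Psmb7, Psmc4, Psmd11 and Psme4), which is again 14.9%, against 15.0% of all genes (8.11% higher and 6.91% lower). The groups did not overlap for 19 of the 47 (40.4%, against 42.3%), and the median change was -0.04 log2, against -0.00 over all genes. In each tumour group the share of called genes was near or under that of all genes. The higher genes of each group include Psmg4, which passed the filter through tumour arrays alone. These 3 comparisons share the same normal livers, so a value of 1 normal array enters all of them. Of the higher counts, 3 in mutant tumours became 1 without normal liver 1, 2 or 3 or mutant tumour 24 or 25 and 6 without mutant tumour 27; 2 in antibiotic tumours became 1 without any normal liver, 0 without antibiotic tumour 29 and 5 without WT tumour 19. Of the lower counts, 5 in WT tumours became 2 without normal liver 2 or 3 and 3 without normal liver 1, WT tumour 18, 19 or 20, mutant tumour 23, 24, 25 or 26 or antibiotic tumour 29; 4 in mutant tumours became 2 without any normal liver; 5 in antibiotic tumours became 2 without normal liver 1 or 2 and 3 without normal liver 3, WT tumour 21, mutant tumour 25 or antibiotic tumour 29 or 30.

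Some calls depended on the probe set. Of the 47 genes, 18 had several kept probe sets, and in 10 of these (WT tumours), 8 (mutant) and 9 (antibiotic) the probe sets disagreed in the sign of the change against normal liver. The Psmb3 probe set used fell, while the other, dimmer one changed by 0.46 in mutant tumours (adjusted p = 0.0139 over all probe sets), 0.32 in antibiotic tumours (adjusted p = 0.112) and 0.28 in WT tumours (adjusted p = 0.0666). The Psme4 probe set used fell, while a dimmer one changed by 0.15 (adjusted p = 0.610), 0.45 (adjusted p = 0.169) and 0.77 (adjusted p = 0.00509) in the same order. In mutant tumours 2 further Psme4 probe sets passed, with changes of -0.72 and -0.34 (adjusted p = 0.0181 and 0.0466). When probe sets were averaged per gene, the change of Psmb3 was 0.07, -0.08 and -0.12 in mutant, antibiotic and WT tumours (adjusted p = 0.604, 0.629 and 0.269), that of Psme4 in antibiotic and WT tumours -0.18 and 0.02 (adjusted p = 0.276 and 0.877), and that of Psmd11 and Psmd6 in WT tumours -0.29 and -0.09 (adjusted p = 0.189 and 0.521), so these calls ended. So did those of Psmc4 in mutant and antibiotic tumours (-0.39 and -0.46, adjusted p = 0.0538 and 0.0545) and of Psmd11 in mutant tumours (-0.49, adjusted p = 0.0624). Opposite calls were made within Psmb3 in mutant tumours and within Psme4 in WT tumours. Psma7 was steady, with 0.43 and 0.47 in WT tumours (adjusted p = 0.00831 and 0.00809), and 2 of the 4 Psmd11 probe sets passed with a fall in each tumour group. Psmb8, Psmd7, Psmd8 and Psmd10 had 1 kept probe set each. Probe set names ending in _s_at, as for Psme4 and Psmd11 here, mark sequence that may be shared with other transcripts.

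**Figure D3:**
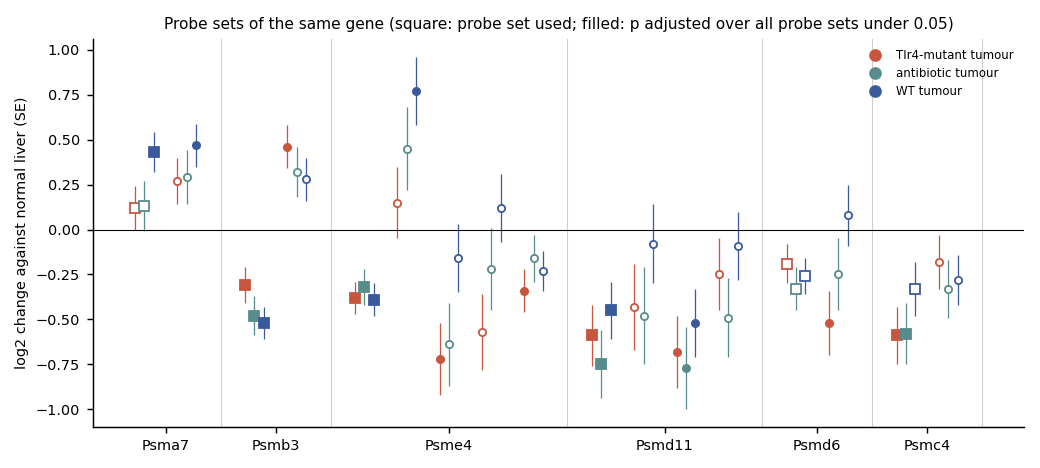
Log2 change against normal liver (vertical axis, with SE) of every kept probe set of 6 genes with several, in Tlr4-mutant, antibiotic and WT tumours; squares are the probe sets used, and filled symbols passed 0.05 after adjustment over all probe sets. The probe sets of Psma7 lie together, while those of Psmb3 and Psme4 lie on both sides of 0.

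Mutant tumours were set against WT tumours to ask what a defective Tlr4 changes, and antibiotic against WT tumours for the microbiota. In neither comparison, nor between mutant and antibiotic tumours, did any of the 47 genes pass: limma called 0 higher and 0 lower in each, against 0.265%, 0.0884% and 0.232% of all genes. Split by direction, the shares of all genes were 0.144% higher and 0.122% lower in mutant against WT tumours, 0.0110% and 0.0773% in antibiotic against WT tumours, and 0.122% and 0.110% in mutant against antibiotic tumours. At an unadjusted p under 0.05 in the limma fit the counts were 9, 3 and 1 of 47, against 1512, 1401 and 932 of all 9053 genes. The groups did not overlap for 1 gene (2.13%, against 1.61% of all genes), 0 genes (against 4.04%) and 0 genes (against 5.71%). The median change was -0.02, -0.07 and 0.01 log2, against 0.03, 0.02 and 0.00 over all genes.

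The smallest p of mutant against WT tumours belonged to Psma7, which changed by -0.31 ± 0.10 (adjusted p = 0.170), and Psmb2, a structural beta subunit, by 0.41 ± 0.13 (adjusted p = 0.195). Psmc5, Psmb3 and Psmd3 followed, with 0.23 ± 0.08, 0.21 ± 0.08 and 0.33 ± 0.12 (adjusted p = 0.214, 0.214 and 0.218). Psmb3 was the gene without overlap: mutant tumours read 11.27 to 11.44, against 10.99 to 11.25 in WT tumours. Of antibiotic against WT tumours the smallest p were those of Psma7 (-0.29 ± 0.11, adjusted p = 0.244), Psme3ip1 (0.55 ± 0.23, adjusted p = 0.270), the chaperone Psmd9 (0.51 ± 0.24, adjusted p = 0.322), Psmd1 (-0.23, adjusted p = 0.323) and Psmd11 (-0.30, adjusted p = 0.368). Between mutant and antibiotic tumours they were those of Psmd3 (0.33 ± 0.15, adjusted p = 0.478), Psmd8 (-0.35, adjusted p = 0.570), Psmb3 (0.16, adjusted p = 0.578), the ubiquitin receptor Psmd4 (0.18, adjusted p = 0.584) and Psmd5 (-0.22, adjusted p = 0.613).

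The intervals show how large a missed difference could be. The 95% interval lay within 1 log2 of 0 for 45, 42 and 45 of the 47 genes in mutant against WT, antibiotic against WT and mutant against antibiotic tumours, and for 31 of the 32 constitutive subunits each time. The exceptions were Psma8 in all 3, Psmb10 in both comparisons with WT tumours, Psmb9 in both comparisons with antibiotic tumours, and Psmd9 and Psme3ip1 in antibiotic against WT tumours. Psmb8 changed by -0.08 in mutant against WT tumours (interval -0.60 to 0.44), by -0.34 in antibiotic against WT tumours (-0.95 to 0.27) and by 0.26 in mutant against antibiotic tumours (-0.39 to 0.90). Psmb9 changed by -0.15 (-0.95 to 0.64), -0.42 (-1.36 to 0.52) and 0.27 (-0.72 to 1.26), and Psmb10 by 0.46 (-0.21 to 1.13), 0.51 (-0.29 to 1.30) and -0.04 (-0.88 to 0.80). Among the others, Psmb5, Psmb6, Psmb7, Psme1, Psme3, Psme4 and Psmf1 ranged from -0.39 (Psmf1, mutant against WT) to 0.19 (Psmb7 and Psme3, mutant against antibiotic).

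The immunoproteasome subunits spread more widely from tumour to tumour than the constitutive complex, given here as a description. The SD within tumour groups was 0.46 for Psmb8, 0.73 for Psmb9 and 0.62 for Psmb10, a median of 0.62 log2. The median was 0.13 for the alpha ring, 0.17 for the constitutive beta ring, 0.12 for the ATPases and 0.21 for the non-ATPases, against 0.32 for all genes tested. Psme4 had the smallest SD of the 47, at 0.07, and Psma8 the largest, at 2.03. Without WT tumours 17 and 19 the immunoproteasome median was 0.44, and the medians of the 4 constitutive classes lay between 0.12 and 0.19, against 0.30 for all genes.

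The 3 subunits varied together. Over the 15 tumours, as deviations from the group means, Psmb8 and Psmb9 correlated with r = 0.89 (rho = 0.89; permutation p = 0.00015 and 0.00044, adjusted over 11 relations 0.00099 and 0.00169). For Psmb8 and Psmb10 r was 0.73 (rho = 0.82; permutation p = 0.00018 and 0.00046, adjusted 0.00099 and 0.00169), and for Psmb9 and Psmb10 it was 0.86 (rho = 0.83; permutation p = 0.00039 and 0.00069, adjusted 0.00107 and 0.0019). Without the 2 tumours farthest from the median, WT tumour 19 and antibiotic tumour 29, r was 0.88, 0.80 and 0.77. Without WT tumours 17 and 19 it was 0.92, 0.75 and 0.72. Within the 7 WT tumours alone r was 0.88, 0.92 and 0.95 (exact permutation p = 0.00516, 0.000198 and 0.00456, adjusted 0.0189, 0.00218 and 0.0189). By rank within WT tumours rho was 0.82, 1.00 and 0.82 (exact permutation p = 0.0341, 0.000397 and 0.0341, adjusted 0.0626, 0.00437 and 0.0626). Antibiotic tumour 29 and WT tumour 20 held the 2 highest values of each subunit, and WT tumour 19 was the lowest WT tumour in each.

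Tap1, whose promoter window overlaps that of Psmb9, varied with them, although its own change against normal liver did not pass (1.08 ± 0.47, 0.78 ± 0.53 and 0.95 ± 0.44 in mutant, antibiotic and WT tumours; adjusted p = 0.108, 0.318 and 0.1). Its r was 0.90 with Psmb8 (rho = 0.79; permutation p = 0.00073 and 0.00601, adjusted 0.00161 and 0.011) and 0.90 with Psmb9 (rho = 0.91; permutation p = 0.00032 and 0.00045, adjusted 0.00107 and 0.00169). Without the 2 farthest tumours r was 0.82 and 0.83, and without WT tumours 17 and 19 it was 0.88 and 0.88. Tap1 was dim, at 3.66 in WT tumour 19 and 3.89 and 3.88 in antibiotic tumours 28 and 30. The low end of both relations therefore lay under log2 4. Of the relations with the constitutive counterparts, 0 of 3 passed: r was 0.05 for Psmb8 with Psmb5, 0.36 for Psmb9 with Psmb6 and -0.04 for Psmb10 with Psmb7 (rho = 0.22, 0.25 and -0.13; permutation p = 0.858, 0.164 and 0.890 for r and 0.461, 0.385 and 0.664 for rho, adjusted 0.890, 0.226 and 0.890, and 0.507, 0.471 and 0.664). Without the 2 tumours farthest from the median, which for Psmb10 with Psmb7 were WT tumours 19 and 20, these became -0.25, -0.03 and -0.38, and without WT tumours 17 and 19 they were 0.20, 0.21 and -0.14.

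The mean log2 signal of the 17 leukocyte markers had r = 0.56 with Psmb8, 0.45 with Psmb9 and 0.57 with Psmb10 (permutation p = 0.148, 0.224 and 0.0280, adjusted 0.226, 0.274 and 0.0513). By rank it was 0.60, 0.54 and 0.73 (permutation p = 0.0524, 0.0920 and 0.00279, adjusted 0.0823, 0.126 and 0.00614), so over the 15 tumours the relation with Psmb10 passed by rank only. Without WT tumour 19 and antibiotic tumour 29, the 2 farthest for Psmb8 and Psmb9, r was 0.48 and 0.37, and for Psmb10 it was 0.78 without WT tumours 19 and 20. Within the WT tumours r was 0.74, 0.51 and 0.63 (exact permutation p = 0.0528, 0.235 and 0.147, adjusted 0.0968, 0.323 and 0.232), and rho was 0.93, 0.71 and 0.93 (exact permutation p = 0.00675, 0.0881 and 0.00675, adjusted 0.0247, 0.138 and 0.0247). Among WT tumours, those that ranked high in leukocyte markers therefore also ranked high in Psmb8 and Psmb10, whereas r did not pass there. These relations were not computed without both WT tumours 17 and 19.

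**Figure D4:**
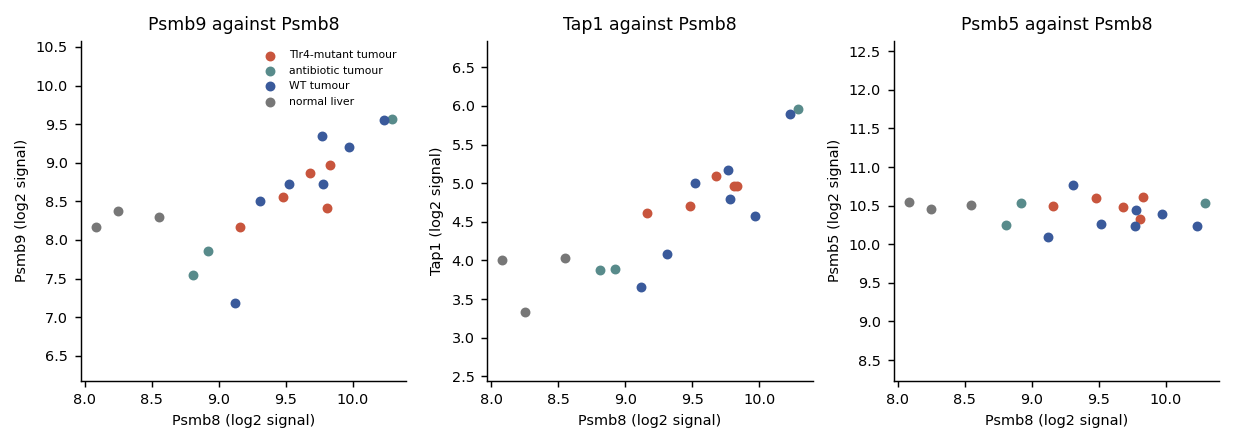
Log2 signal of Psmb9, Tap1 and Psmb5 (vertical axes, 4.4 log2 units each) against that of Psmb8 (horizontal axis) in 18 samples coloured by group. Psmb9 and Tap1 climb with Psmb8 among the 15 tumours (r = 0.89 and 0.90 after centring each group), while Psmb5 stays level (r = 0.05).

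Psma8, the alpha subunit of the testis proteasome and a paralog of Psma7, was above log2 4 in 3 tumours only. It read 7.87 in mutant tumour 27, 8.05 in WT tumour 20 and 5.16 in WT tumour 17, and 2.33 to 3.67 on the other 15 arrays. The antibiotic tumours (median 2.94) and normal livers (2.67, 3.34 and 3.67) were all below log2 4. The signal was bright in 1 mutant and 1 WT tumour and moderate in another WT tumour. Psma8 passed the filter through these 3 arrays, and no fold is given because the group means lay below log2 4.

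**Figure D5:**
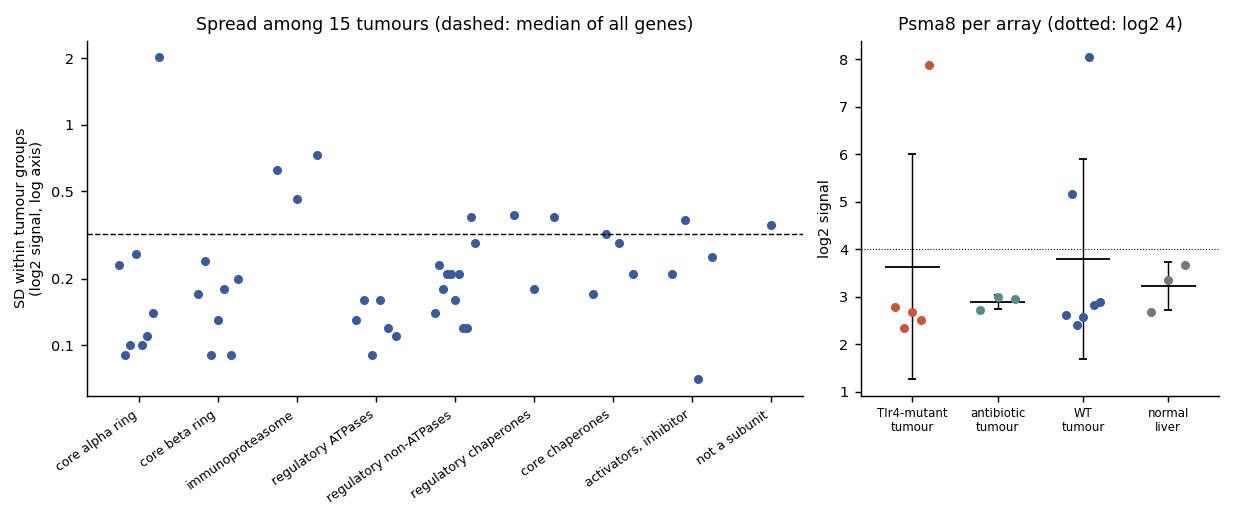
Left, SD within tumour groups (log2 signal, log axis) of each of the 47 genes by role, with the median of all genes tested dashed. Right, Psma8 log2 signal per array with mean and SD by group: 3 tumours lie above log2 4 (dotted) and the other 15 arrays lie below it.

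The genes around the proteasome were counted by lists of known partners. The shares of all genes to read these counts against are 11.7%, 8.11% and 18.8% higher and 10.5%, 6.91% and 20.2% lower in mutant, antibiotic and WT tumours. Of 11 partners outside the symbol rule, 1, 0 and 3 were higher in mutant, antibiotic and WT tumours than in normal liver and 0, 0 and 1 lower, with a median change in WT tumours of -0.05 log2 against -0.01 over all genes. The small lid subunit Sem1 rose by 0.37 and 0.47 in mutant and WT tumours (adjusted p = 0.0326 and 0.00367), although the value averaged over its probe sets was 0.20 in WT tumours and did not pass (adjusted p = 0.0716). The arsenite-inducible proteasome adaptor Zfand2a rose by 1.98 in WT tumours (adjusted p = 0.00772). Of 9 ubiquitin and shuttle factors 1, 1 and 3 were higher and 1, 1 and 1 lower, with a WT median of 0.26. The ubiquitin-activating enzyme Uba6 rose in all 3 groups, by 1.31, 1.12 and 1.67 (adjusted p = 0.00444, 0.0268 and 0.000291). The shuttle factor Ubqln4 changed by -0.69, -0.85 and -0.55 (adjusted p = 0.0168, 0.0151 and 0.0236), where the WT call ended without normal liver 1 or 3 (adjusted p = 0.108 and 0.0695).

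Of 9 genes that control proteasome transcription, 0, 1 and 3 were higher and 0, 0 and 1 lower, with a WT median of 0.37 log2. Nfya of this list lay below log2 4 in every normal liver and passed the filter through tumours alone. Nfe2l2, the antioxidant response activator, rose by 1.10 in antibiotic and 1.11 in WT tumours (adjusted p = 0.0258 and 0.00386), and Nfyc, a subunit of the CCAAT-binding factor, changed by -0.64 in WT tumours (adjusted p = 0.00409). Of 12 genes of MHC class I presentation 5, 1 and 6 were higher and 0, 0 and 1 lower, with a WT median of 0.42 log2. The peptide transporter subunit Tap2, a neighbour of Psmb8, rose by 1.12 and 1.15 in mutant and WT tumours (adjusted p = 0.0122 and 0.00401). The class I heavy chain H2-K1 rose by 0.58, 0.49 and 0.41 in mutant, antibiotic and WT tumours (adjusted p = 0.00554, 0.0328 and 0.0150), and the WT call ended without normal liver 1 or 3 (adjusted p = 0.0617 and 0.0502). Of 10 measured interferon gamma response genes 2, 1 and 4 were higher and 0 lower, with a WT median of 1.17 log2. Cxcl10, Gbp2 and Irf8 also lay below log2 4 in every normal liver and passed the filter through tumours alone. The counts and medians of the transcription and interferon gamma lists were therefore partly set by the filter. The chemokine Cxcl9 rose by 2.72, 2.92 and 3.74 (adjusted p = 0.0287, 0.0454 and 0.00206), and the GTPase Iigp1 by 0.54 and 0.64 in mutant and WT tumours (adjusted p = 0.0159 and 0.00241). Of the hepatocyte markers, Cps1 and Ttr had the smallest p in WT tumours, at -1.21 and -0.16 (adjusted p = 0.104 and 0.141). Without WT tumour 19 Cps1 passed, at -0.73 (adjusted p = 0.0231), and without WT tumours 17 and 19 it was -0.57 (adjusted p = 0.0224). In the tumour-to-tumour comparisons 0 genes of any of these lists passed, and the smallest adjusted p was 0.147, in the transcription list in mutant against WT tumours.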

How the data were processed

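The authors deposited log2 GCRMA values for 45101 Affymetrix probe sets on 18 arrays, per the file headers and the submitters' processing notes, which give no version; GCRMA corrects background by probe sequence and normalizes between arrays, so low values are compressed. Per the labels, RNA was amplified by a 3' kit. Of the probe sets, 64 were controls, 34958 had 1 symbol in the platform table, 932 several and 9211 none; 34754 symbols were found by Entrez identifier and 0 changed. Members and gene lists were chosen with earlier results of these data known, so no list is independent support.

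Probe sets above log2 4 on at least 3 arrays were kept (16663), 1 of highest mean per gene (9053 genes). limma 3.58.1 in R 4.3.3 (lmFit, eBayes) fitted 4 group means to all 18 arrays, with Benjamini-Hochberg adjustment and a threshold of 0.05, for 6 comparisons; the method was checked on simulated data. A group below log2 4 on all its arrays gave only a bound, taken at log2 4. Correlations used values centred by group over 15 tumours, with 100000 permutations within groups, or all orders of the 7 WT tumours, two-sided. Named genes were the catalytic subunits, activators and inhibitor in each comparison; the 6 largest rises and falls past the threshold against normal liver; the 5 members of smallest p between tumour groups, where 0 passed; the 2 genes of smallest p in WT tumours from each other list; and members at the edge of the filter. Tap1 and the further probe sets were added after values were seen. Alternatives were the filter, the probe set rule, scaling, variance model, array weights, the groups fitted, thresholds and leaving out arrays. No batch beyond the groups was recorded.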

Additional observations from a re-analysis of the deposited data

Results flagged for a closer look

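A sample far from the others of its group was looked for in 94 groups of values (47 genes in WT tumours and in mutant tumours; groups of 3 were not examined). It was found 10 times, 6 in WT and 4 in mutant tumours, where chance alone gives about 1 in 20, or 4.7. The largest gap was that of Psma8, at 7.87 in mutant tumour 27 against 2.33 to 2.79 in the other mutant tumours. The same tumour was low in Psma6 (11.88, against 12.00 to 12.04) and Psmd1 (10.24, against 10.43 to 10.47). WT tumour 16 was high in Psma3 (12.30, against 11.96 to 12.10), Psmd1 (10.73, against 10.38 to 10.52) and Psme4 (10.76, against 10.55 to 10.59). WT tumour 19 was low in the assembly chaperones Psmg1 (8.25, against 8.68 to 8.85) and Psmg2 (8.11, against 8.71 to 9.03). WT tumour 17 was low in Psma4 (10.01, against 10.75 to 11.03), and mutant tumour 24 in Psme3 (6.01, against 6.36 to 6.43).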

How the results depend on the processing

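Of 37 called gene results, 16 kept their call under each alternative to the fit at the same threshold, among them Psmb8, Psmd7, Psmd8, Psmd10 and Psma7 in WT tumours; of these 5, Psmd7 (1.96-fold) and Psma7 (1.34-fold) fall under a 2-fold minimum. Of 3018 values under alternatives, 2811 kept direction and side of the threshold, 123 lost and 39 gained the call and 45 changed sign, with adjusted p of 0.0511 to 0.998; the cause was not tested. Counts of the 47 genes against normal liver moved as follows. The mean of probe sets gave 1, 2 and 2 lower (WT, mutant, antibiotic); leaving out _x_at and _s_at probe sets gave 3 lower in WT; quantile normalization gave 1 higher in antibiotic tumours. Array weights gave 10 lower in WT, 11 higher and 11 lower in mutant and 4 higher in antibiotic tumours. Fitting only the compared groups gave 5 higher in mutant and 4 higher and 1 lower in antibiotic tumours. An adjusted p of 0.01 gave 2 lower in WT, 1 higher and 1 lower in mutant and 0 higher and 1 lower in antibiotic tumours. A 2-fold minimum gave 3 higher and 0 lower in WT, 1 and 0 in mutant and 0 and 0 in antibiotic tumours. Without WT tumours 17 and 19 there were 3 lower in WT, 5 higher in mutant and 5 higher in antibiotic tumours. Testing each probe set, chosen after seeing the data, gave 10 higher in WT and 8 lower in mutant tumours. Leaving out 1 array gave 5 to 8 higher and 2 to 5 lower in WT, 1 to 6 and 2 to 4 in mutant and 0 to 5 and 2 to 5 in antibiotic tumours. Between tumour groups the counts were 0 throughout. Signs turned with the mean of probe sets for Psme4 in WT (0.02) and Psmb3 in mutant tumours (0.07) against normal liver, and for Psme4 against WT in mutant (-0.39) and antibiotic tumours (-0.20). Without _x_at and _s_at probe sets Psmf1 in antibiotic tumours was 0.01 and Psme4 in mutant against WT -0.11. Centred arrays gave Psmb5 -0.02 in mutant tumours and Psme3 0.01 in mutant against WT; quantile normalization gave Psme3 0.00 there. Array weights gave Psmb5 -0.02 and Psme1 -0.05 in mutant tumours, and Psme3 0.03 and Psme4 -0.01 in mutant against WT. Without WT tumours 17 and 19 these 2 were 0.01 and 0.00. Leaving out 1 array, signs also turned in mutant tumours against normal liver for Psmb5 (-0.02 to 0.05) and Psme1 (-0.03 to 0.06), and in antibiotic tumours for Psmb9 (-0.57 to 0.44), Psmf1 (-0.33 to 0.02) and Psmb5 (-0.11 to 0.03). Mutant against WT they turned for Psme3 (-0.11 to 0.05), Psmb7 (-0.06 to 0.09), Psmb8 (-0.17 to 0.03) and Psme4 (-0.02 to 0.04), and antibiotic against WT for Psmb6 (-0.01 to 0.07) and Psme3 (-0.59 to 0.17). Mutant against antibiotic they turned for Psmb10 (-0.27 to 0.18), Psmf1 (-0.25 to 0.07), Psmb8 (-0.01 to 0.73), Psmb9 (-0.12 to 0.89), Psmb5 (-0.03 to 0.11) and Psme3 (-0.20 to 0.57). Signal near log2 4 limits Psmg4, Psma8 and the low values of Tap1. No paired analysis was possible because the groups share no replicate numbers.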
